A study of Mus musculus with 34 samples.

Results

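The immunoglobulin genes and gene segments were described in RNA sequencing tables of mouse liver tumors and livers that carry a MYC transgene. Members were all rows whose annotated type begins with IG_ and is not a pseudogene, which gave 266 of the 47049 distinct gene symbols in the 3 tables. They comprised 13 constant genes, 217 variable segments, 14 joining segments, 19 diversity segments and 3 rows of type IG_LV, and 157 immunoglobulin pseudogene rows were left out. All 266 had a row in the mixed-strain tumor table, 3 had one in the FVB tumor table (Igkc, Igha and Ighm) and 1 had one in the table of Rag1-/- livers (Ighm). The rule used the annotated type alone and no expression value.

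The animals carried LAP-tta, a liver-restricted tetracycline transactivator, and TRE-MYC, the MYC transgene it drives, and tumors formed after doxycycline water was withdrawn. Het tumors had the genotype Arid1a fl/+ with Alb-cre, Homo tumors had Arid1a fl/fl with Alb-cre, and WT tumors carried floxed Arid1a without Cre. Arid1a makes a DNA-binding part of the SWI/SNF chromatin remodeler, and Alb-cre acts in hepatocytes, so lymphocytes in these tumors are not its intended target. On a mixed background of C57/B6, 129 and FVB there were 8 Het and 8 WT tumors at about 90 days of age. The FVB background had 4 tumors per genotype, collected at death, and the age was about 100 days for Homo, about 70 days for Het and about 55 days for WT. Age therefore moved with genotype in FVB, and Cre was absent from every WT tumor, so age, Cre and Arid1a loss cannot be told apart there. Livers of Rag1-/- FVB mice with the MYC transgenes and no Arid1a deletion were taken at about 42 days, 14 days after adenovirus with human ARID1A (ad-ARID1A, 3 livers) or with Cre (ad-Cre, 3 livers). Rag1 makes the enzyme that cuts immunoglobulin and T cell receptor genes for rearrangement, so mature B and T cells do not form without it. They are labelled liver, not tumor, in 1 field and tumor tissue in another.

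An antibody consists of heavy and light chains. A B cell builds each chain by joining a variable, sometimes a diversity, and a joining segment to a constant gene, and plasma cells then transcribe the finished genes at very high levels. Ighm encodes the mu heavy chain of IgM, the first isotype made, and can also be transcribed from a locus that has not been rearranged. Igha encodes the alpha heavy chain of IgA, the main antibody of mucosal surfaces, which the liver also receives and passes into bile, and Igkc encodes the constant region of kappa, the commoner light chain in mice. In bulk tissue, fewer cells of a type and less RNA per cell cannot be told apart.

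The 3 constant genes on which the results turn are shown by their last 54 coding bases before the stop codon, taken from the GENCODE vM21 transcripts (GRCm38), because the end of each chain is where it bonds to its partner. The capitals mark a cysteine codon. It is the last codon of kappa, whose cysteine bonds to the heavy chain, and the last but one of secreted alpha and mu, whose cysteine lies in the tailpiece that joins the J chain in polymeric IgA and IgM. The stretches lie at chr6:70726701-70726754 on the plus strand (Igkc), chr12:113258771-113258824 on the minus strand (Igha) and chr12:113420870-113420923 on the minus strand (Ighm).
Igkc: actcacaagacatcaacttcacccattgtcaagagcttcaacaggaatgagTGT
Igha: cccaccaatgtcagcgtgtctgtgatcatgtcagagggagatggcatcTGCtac
Ighm: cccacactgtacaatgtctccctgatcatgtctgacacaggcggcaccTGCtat

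Mixed-strain libraries held 2.28 to 5.28 M reads, FVB libraries 6.63 to 12 M and Rag1-/- libraries 8.72 to 10.6 M, recovered from the size of the smallest step in each library. Levels are given in CPM, counts per 1000000 reads. The FVB and Rag1-/- tables list a gene at or below 1 CPM in a library at 0, and every row reaches at least 2 CPM in some library, so a gene without a row is read as under 2 CPM throughout. The mixed-strain table has no such floor, but 0 reads there still allows 0.569 to 1.32 CPM in a library (3 reads, counting error only). In the FVB table WT 1 and WT 2 stood apart, with loadings of 0.54 and 0.69 on the first principal component against -0.23 to 0.08 in the other 10 libraries. Hepatocyte markers summed to 2588 to 12335 CPM in mixed-strain tumors over the 11 of 12 listed genes with a row. Whether the samples of a group are separate mice is not stated in the labels, and the p-values then cover only the variation seen among these libraries.

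FVB Homo tumors were set against WT tumors to ask how immunoglobulin RNA differs when both Arid1a copies are lost from hepatocytes. The kappa and alpha constant genes were both higher in Homo tumors, each by more than 4-fold, and the mu constant gene was not. Igkc (chr6:70726435-70726966, plus strand) stood at a log2 CPM of 3.49, 3.01, 2.39 and 3.87 in Homo tumors, at 1.95, 2.18, 2.10 and 1.15 in Het tumors and at 0.61, 0.66, 0.27 and 1.44 in WT tumors. Every Homo tumor was above every WT tumor and every Het tumor, while Het 4 lay below WT 4. The means were 3.19 ± 0.64 in Homo and 0.75 ± 0.49 in WT tumors (SD, n = 4 each), a log2 difference of 2.45 ± 0.36 SE (limma adjusted p = 0.0297).

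Igha (chr12:113254830-113260236, minus strand) had log2 CPM values of 3.55, 3.34, 2.89 and 4.17 in Homo tumors, 2.06, 2.41, 2.23 and 2.08 in Het tumors and 0.52, 1.11, 1.44 and 1.91 in WT tumors. The 3 genotypes did not overlap, with Homo highest and WT lowest. The means were 3.49 ± 0.53 in Homo and 1.25 ± 0.58 in WT tumors (SD, n = 4 each), a log2 difference of 2.24 ± 0.32 SE (limma adjusted p = 0.0297). These differences rest on small numbers, 52 to 146 Igkc reads in a Homo tumor against 8 to 29 in a WT tumor, and 74 to 179 Igha reads in a Homo tumor against 17 to 40 in a WT tumor. Igkc and Igha were the 2 genes called higher among 16140 tested (0.0124%), and 5 genes were called lower (0.031%). Every Homo library lay above every WT library for 2.09% of all genes.

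Ighm (chr12:113418558-113422730, minus strand) stood at a log2 CPM of 1.33, 0.26, 0.49 and 1.08 in Homo tumors, 0.84, 1.38, 1.83 and 0.83 in Het tumors and 1.48, 1.66, 0.44 and 0.17 in WT tumors. The genotypes overlapped. The log2 difference of Homo from WT tumors was -0.15 ± 0.39 SE (limma adjusted p = 0.944), and it was 0.49 without WT 1 and WT 2. It was slightly positive also without Homo 2 (0.03), WT 1 (0.03) or WT 2 (0.09).

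The calls of Igkc and Igha depended on single libraries, although both log2 differences stayed between 2.0 and 2.71 when any 1 Homo or WT library was left out. The limma adjusted p of Igkc was 0.168 without Homo 1, 0.0780 without Homo 2, 0.0847 without Homo 4, 0.136 without WT 2 and 0.126 without WT 3. That of Igha was 0.168, 0.0780, 0.0781, 0.136 and 0.110 without the same libraries. Both calls were also lost in a fit of Homo and WT libraries alone (adjusted p = 0.222 for both), that of Igkc on log2(CPM + 1) (adjusted p = 0.0712) and that of Igha when genes had to average a log2 CPM of 2 (adjusted p = 0.115). Without WT 1 and WT 2 together the log2 differences were 2.34 for Igkc (adjusted p = 0.267) and 1.81 for Igha (adjusted p = 0.163).

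**Figure D1:**
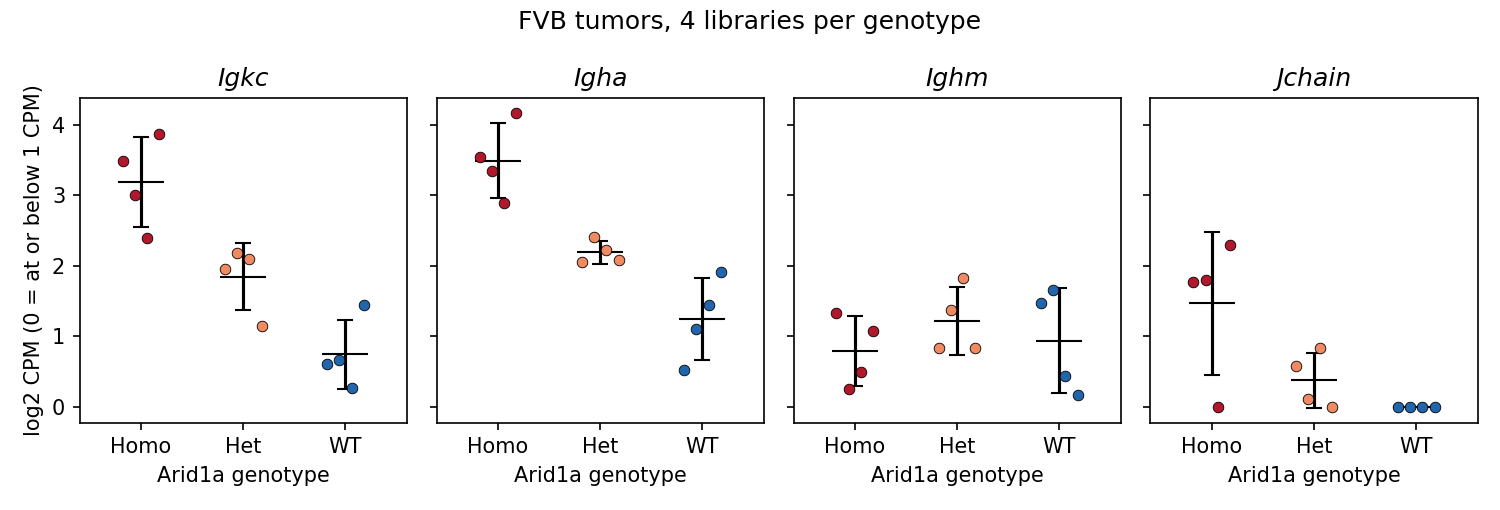
Level of 4 genes in FVB tumors by Arid1a genotype (Homo, Het, WT), in log2 CPM with values at or below 1 CPM at 0. Points are libraries, horizontal lines are means and bars are 1 SD (n = 4). All 4 Homo libraries lie above all 4 WT libraries for Igkc and Igha, the genotypes overlap for Ighm, and Jchain is at 0 in all 4 WT libraries.

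The mean of Het tumors lay between those of Homo and WT tumors for both genes, but neither step passed the threshold over all genes. Against WT tumors the log2 difference of Het tumors was 1.10 ± 0.36 SE for Igkc (limma adjusted p = 0.192), 0.95 ± 0.32 SE for Igha (adjusted p = 0.205) and 0.28 ± 0.39 SE for Ighm (adjusted p = 0.810). In that comparison 0.0248% of genes were called, all lower, and every Het library lay above every WT library for 4.41% of genes, Igha among them. Against Het tumors the log2 difference of Homo tumors was 1.35 ± 0.36 SE for Igkc, 1.29 ± 0.32 SE for Igha and -0.43 ± 0.39 SE for Ighm. Homo libraries all lay above Het libraries for Igkc, Igha and 0.923% of all genes. No gene was called there by limma (0%, adjusted p = 1 for all 3). An unadjusted limma p under 0.05 was reached by 623 of 16140 genes, Igkc and Igha among them. That is a smaller share than the 0.05 that no difference at all would give. The 3 comparisons share libraries and are not independent of each other.

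Summed over the 3 constant genes, FVB tumors held 14.1 to 34.7 CPM in Homo (median 22.4), 8.22 to 12.5 CPM in Het (median 11.1) and 5.28 to 7.60 CPM in WT (median 6.32). The sums of the 3 genotypes did not overlap. No variable segment has a row in this table, so each is read as under 2 CPM in all 12 libraries. For comparison, 3 of 217 variable segments and 7 of all 266 members reached 2 CPM in some mixed-strain library, and Igkc, Igha and Ighm were among the 7.

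Genes that work with antibodies were read beside these values. Jchain, the small protein that links IgA or IgM units into polymers, stood at a log2 CPM of 1.77, 1.80, 0 and 2.30 in Homo tumors, 0.58, 0.11, 0.83 and 0 in Het tumors, and was listed at 0 in all 4 WT tumors. Its difference of Homo from WT tumors missed the threshold (limma adjusted p = 0.237). Only Homo libraries lifted Jchain past the 2 CPM that a row requires, so its higher level there is partly set by that filter. Mzb1, a chaperone of antibody-secreting cells, averaged 1.11 ± 0.80 in Homo and 0.20 ± 0.25 in WT tumors (log2 CPM, SD, n = 4 each; limma adjusted p = 0.439). Mzb1 reached at most 1.43 CPM in WT tumors, against 4.92 in Homo and 2.38 in Het tumors, so the filter affects it too. Of the plasma cell list, 15 of 18 genes had a row, 12 were higher and 3 lower in Homo tumors and none was called, with a median log2 difference of 0.22 against -0.02 over all genes tested. Many of these secretory genes are also expressed by hepatocytes, such as Xbp1, a regulator of the secretory apparatus, at a log2 CPM of 7.15 ± 0.26 in Homo and 6.47 ± 0.34 in WT tumors (log2 difference 0.69 ± 0.19 SE, limma adjusted p = 0.246). The list's summed level was 1471 to 1603 CPM in Homo and 1218 to 1602 CPM in WT tumors.

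Pigr is the receptor that carries polymeric IgA across epithelia. Its log2 CPM was 3.16, 3.46, 2.54 and 3.66 in Homo tumors, 2.46, 3.82, 2.38 and 4.43 in Het tumors and 4.04, 6.16, 6.2 and 5.0 in WT tumors. Every Homo tumor was below every WT tumor, but the log2 difference of -2.15 ± 0.52 SE missed the threshold (limma adjusted p = 0.172), and 1.98% of all genes were separated in this direction.

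Other lymphocyte genes did not pass between Homo and WT tumors, where 0.0124% of all genes were called higher and 0.031% lower. With so few calls, an empty list of this size, or the empty plasma cell list, says little about its genes. Of the B cell list 7 of 21 genes had a row, none was called, and their summed level was 10.9 to 32.0 CPM in Homo and 17.8 to 29.0 CPM in WT tumors. The defining markers Cd79a and Ms4a1 had no row in the FVB table, so each is read as under 2 CPM there. Of the T cell list 5 of 23 genes had a row and none was called, with sums of 4.62 to 15.7 CPM in Homo and 5.42 to 9.73 CPM in WT tumors. Il7r, a cytokine receptor of lymphoid precursors and T cells, averaged 1.12 ± 0.78 in Homo and 0.06 ± 0.12 in WT tumors (log2 CPM, SD, n = 4 each; limma adjusted p = 0.409). Its highest value was 1.18 CPM in WT, 4.47 in Homo and 3.36 in Het tumors, so only Homo and Het libraries gave it a row. Il7r was the 1 gene higher in Homo tumors among the 4 of 12 B cell precursor genes with a row. Of these 3 were lower and none was called. The median log2 difference of these 4 was -0.40, and they summed to 10.6 to 19.3 CPM in Homo and 9.80 to 131 CPM in WT tumors. Erythroid markers summed to 30.8 to 107 CPM in Homo and 22.2 to 539 CPM in WT tumors, and Kupffer cell marker Clec4f differed by -2.91 ± 0.69 SE on the log2 scale (limma adjusted p = 0.161). Of the 14 macrophage and Kupffer cell genes 7 were higher and 7 lower in Homo tumors, with a median log2 difference of -0.02, sums of 508 to 824 CPM in Homo and 528 to 840 CPM in WT tumors, and no call. The part of these cell types in the Igkc and Igha differences was not tested.

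Rag1-/- livers were examined to see which immunoglobulin RNA remains without mature lymphocytes. Igkc and Igha had no row in that table, so both are read as under 2 CPM in all 6 livers, and the same held for Jchain, Mzb1, Cd79a, Cd79b, Ms4a1 and Cd3e. Ighm was the exception. It stood at 13.3, 16.3 and 9.38 CPM after ad-ARID1A and at 15.5, 18.6 and 28.4 CPM after ad-Cre, on 85 to 248 reads per liver. The groups overlapped, and the log2 difference of -0.67 ± 0.26 SE missed the threshold (limma adjusted p = 0.333). In that comparison 0.277% of genes were called higher and 0.0426% lower.

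Each of the 6 Rag1-/- livers was above all 12 FVB tumors, in which Ighm reached 1.13 to 3.56 CPM. Mixed-strain tumors held 1.41 to 9.70 CPM in Het and 0.753 to 7.82 CPM in WT. Their highest value was thus above the lowest Rag1-/- liver, at 9.38 CPM. The 3 tables were normalized separately and differ in tissue and age, so these differences were not tested. B cell genes with a row in the Rag1-/- table were Cr2, Blnk and Bank1, which summed to 11.2 to 15.5 CPM after ad-ARID1A and 8.94 to 14.2 CPM after ad-Cre. None of the 3 was called. Dntt, the enzyme that adds bases at rearranged joints, was at most 2.17 CPM, and the surrogate light chain genes Igll1 and Vpreb1 had no row. The Rag1 gene itself was listed at 0 to 2.33 CPM, and the labels do not say which part of it is deleted. Pigr was at 644 to 1296 CPM in these livers, against 5.21 to 73.5 CPM in the FVB tumors and 2.27 to 738 CPM in the mixed-strain tumors, again across separately normalized tables.

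**Figure D2:**
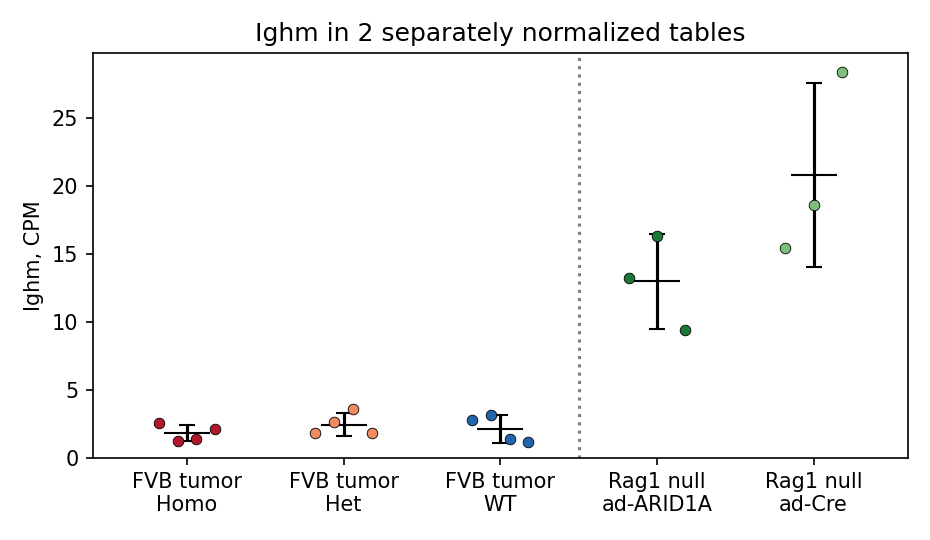
Ighm level in CPM in FVB tumors (Homo, Het, WT) and in Rag1-/- livers (ad-ARID1A, ad-Cre), which come from separately normalized tables divided by the dotted line. Points are libraries, horizontal lines are means and bars are 1 SD. The 6 Rag1-/- livers sit between 9.38 and 28.4 CPM and the 12 FVB tumors between 1.13 and 3.56 CPM. Mixed-strain tumors are not shown.

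Mixed-strain Het tumors were set against WT tumors to ask how immunoglobulin RNA differs when 1 Arid1a copy is deleted. No member was called, and the genotypes overlapped for Igkc, Igha and Ighm. Igkc ran from 1.57 to 4.85 in Het tumors (median 3.99) and from 3.16 to 4.87 in WT tumors (median 4.30, log2(CPM + 1), n = 8 each). The lowest value was Het 8, and without it the lowest Het tumor was at 2.82. The log2 difference was -0.50 ± 0.42 SE (limma adjusted p = 0.570).

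Igha ran from 2.23 to 5.21 in Het tumors (median 4.78) and from 3.44 to 5.57 in WT tumors (median 4.72), with a log2 difference of -0.24 ± 0.41 SE (limma adjusted p = 0.801). Ighm ran from 1.27 to 3.42 in Het tumors (median 2.35) and from 0.81 to 3.14 in WT tumors (median 2.33), with a log2 difference of 0.19 ± 0.43 SE (limma adjusted p = 0.857). The sign of the Igha difference turned to 0.08 without Het 8, and that of Ighm to -0.06 without WT 6. No direction is drawn from either.

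Of the 266 members 11 reached a mean of 0.5 CPM and were tested, and 0 of 11 were called by limma, where 0.16% of the 17552 genes tested were. Of the 11, 3 were higher and 8 lower in Het tumors, with a median log2 difference of -0.31 against 0.05 over all genes tested. An unadjusted limma p under 0.05 was reached by 1 of the 11 members and by 2772 of the 17552 genes, which is the larger share. That member was Igkv6-15, a kappa variable segment, which had 0 to 2 reads in each Het tumor and 0 to 10 in each WT tumor (log2 difference -0.85 ± 0.32 SE, limma adjusted p = 0.226). Ighg2b, the gamma-2b constant gene of IgG, differed by 0.20 ± 0.32 SE and Ighd, the delta constant gene of IgD, by -0.52 ± 0.40 SE on the log2 scale (limma adjusted p = 0.783 and 0.535).

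**Figure D3:**
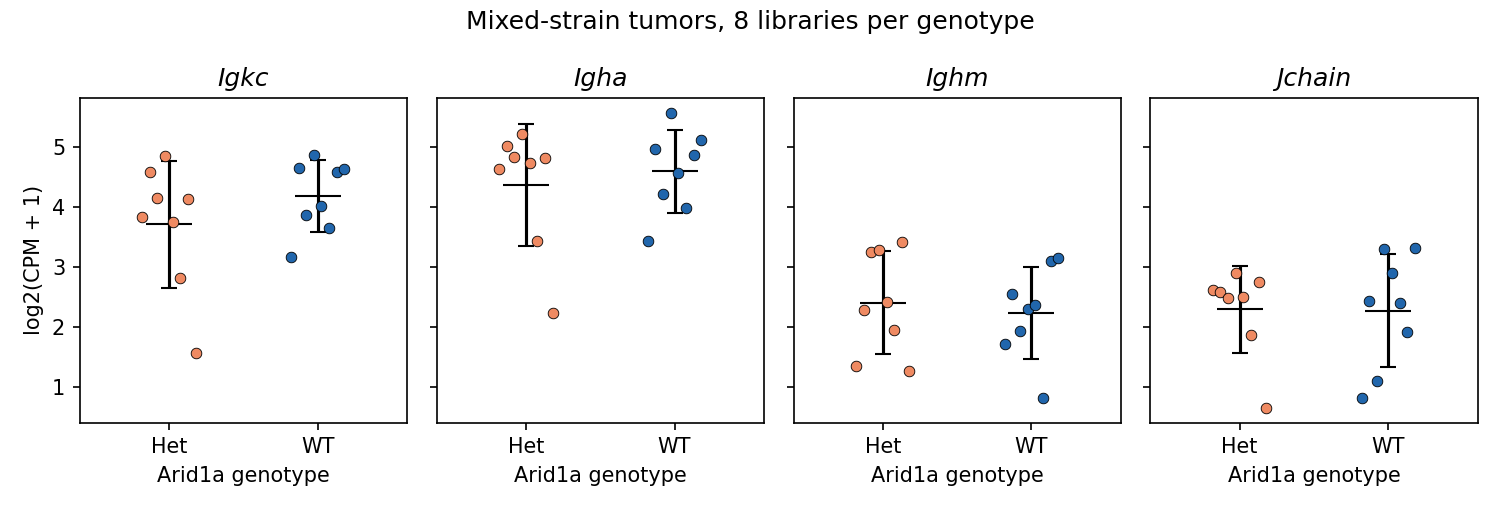
Level of 4 genes in mixed-strain tumors by Arid1a genotype (Het, WT), in log2(CPM + 1). Points are libraries, horizontal lines are means and bars are 1 SD (n = 8). The genotypes overlap for all 4 genes, and the lowest Igkc point, at 1.57, is Het 8.

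The spread among tumors of one genotype was wider than the difference between genotypes. Summed over constant genes, mixed-strain tumors held 7.36 to 77.5 CPM in Het (median 49.8) and 20.4 to 82.1 CPM in WT (median 53.1). Summed over variable segments they held 0.567 to 21.6 CPM in Het (median 9.81) and 4.13 to 22.2 CPM in WT (median 13.2). Het 8, with 28 immunoglobulin reads of 3.54 M, was the lowest library on both sums, and WT 4, with 540 of 5.14 M, the highest.

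In all, the 16 mixed-strain libraries held 3893 reads on the members. Constant genes took 3112 of them (79.9%), variable segments 764 (19.6%), joining segments 12, diversity segments 2 and the IG_LV rows 3. Of the constant reads 2026 were heavy chain, 1062 kappa and 24 lambda, so lambda made up 2.21% of light chain constant reads. Igha supplied most heavy chain constant reads in every library, 66.5% to 90.0% in Het and 74.8% to 87.2% in WT tumors. The 4 gamma genes together supplied 4.17% to 8.63% in Het and 0% to 8.70% in WT tumors.

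Per length the order of the 2 leading genes changed. By CPM Igha (median 26.4) was above Igkc (median 15.8) over the 16 mixed-strain libraries, on 2668 exon bases against 532. Per kilobase of the shortest annotated transcript, 1100 bases for Igha, 532 for Igkc and 1493 for Ighm, the mean levels were 22.1 CPM for Igha, 31.1 CPM for Igkc and 3.14 CPM for Ighm. In the FVB tumors the same means were 5.74 for Igha, 9.57 for Igkc and 1.42 for Ighm.

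**Figure D4:**
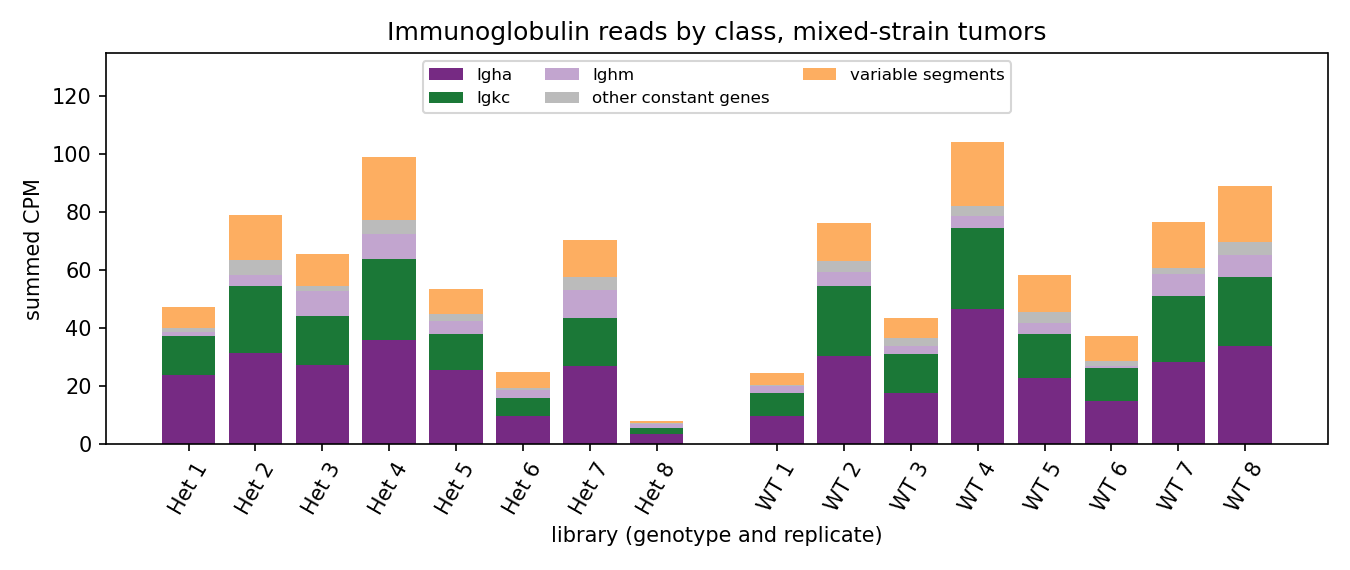
Summed CPM on immunoglobulin genes in each mixed-strain tumor, Het libraries left of WT libraries, with bars split into Igha, Igkc, Ighm, other constant genes and variable segments. Het 8 has the lowest total (7.92 CPM) and WT 4 the highest (105 CPM), and Igha is the largest piece in every bar.

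Variable segments were spread thinly over many members. Of 217 segments 144 had a read in some mixed-strain library and 73 had none in any. For 55 segments the reads came from only 1 library, not the same one for each. There were 10 segments present in at least 8 libraries and none in all 16. Kappa segments named Igkv gave 502 of the 764 variable reads (65.7%), from 71 of 100 segments. Heavy chain segments gave 244 (31.9%), from 70 of 113, and lambda segments gave 18, from Iglv1, Iglv2 and Iglv3. The remaining segment, Gm42543, lies on chromosome 6 among the kappa segments and had no read. The 10 segments with the highest mean held 335 reads (43.8%), led by Igkv1-110 with 53, Ighv5-17 with 48, Igkv15-103 with 44 and Igkv6-15 with 41.

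The leading segment was not the same in all tumors, but some led in several. Igkv1-110 led Het 4, with 14 of 87 variable reads (16.1%, 95% Clopper-Pearson interval 9.09% to 25.5%), WT 4, with 14 of 114 (12.3%, 6.88% to 19.7%), and WT 7, with 7 of 57 (12.3%, 5.08% to 23.7%). It tied for the lead at 3 reads in Het 5 and WT 6. It had 0 to 3 reads in each of the other 7 Het tumors and 0 to 4 in each of the other 6 WT tumors. Ighv5-17 led Het 1 with 7 of 33 variable reads (21.2%, 8.98% to 38.9%). It tied for the lead in Het 3, Het 6, WT 1 and WT 5. Igkv15-103, by contrast, led WT 2 with 5 of 30 variable reads, and Igkv6-15 led WT 3 with 6 of 25. In Het 8 only 2 variable reads were present, from 2 segments. Intervals cover counting error only and do not allow for picking the leading segment of a library.

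Reads on near-identical segments may be split or lost in counting. Igkv1-110 and Igkv1-117, both among the 10 highest, are shown by the first 300 bases of their second coding exons because they are the closest pair of the 29 compared. The exons agree at 96.8% of 313 bases, with 142 bases as the longest shared run, while the least alike pair agreed at 61.4%. The capitals mark the 10 bases at which they differ, and the stretches lie on the plus strand at chr6:68270955-68271254 and chr6:68121515-68121814 (GENCODE vM21, GRCm38).
Igkv1-110: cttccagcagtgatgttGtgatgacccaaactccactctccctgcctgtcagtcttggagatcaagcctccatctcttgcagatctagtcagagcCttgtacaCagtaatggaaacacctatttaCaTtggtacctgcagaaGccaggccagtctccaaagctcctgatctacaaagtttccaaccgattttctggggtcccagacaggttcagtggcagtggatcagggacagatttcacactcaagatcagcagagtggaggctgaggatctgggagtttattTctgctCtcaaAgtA
Igkv1-117: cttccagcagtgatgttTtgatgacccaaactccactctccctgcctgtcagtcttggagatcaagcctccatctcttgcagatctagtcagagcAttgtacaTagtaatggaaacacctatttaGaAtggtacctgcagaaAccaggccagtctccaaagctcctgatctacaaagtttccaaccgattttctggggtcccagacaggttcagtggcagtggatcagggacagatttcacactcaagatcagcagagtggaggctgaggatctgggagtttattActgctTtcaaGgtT
The levels of these 2 segments are therefore uncertain. Igkv1-110 had 53 reads and Igkv1-117 had 35 over the 16 libraries, and neither was called between Het and WT tumors (limma adjusted p = 0.623 and 0.829).

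Across the 16 mixed-strain tumors Igkc was related to 9 chosen genes on the log2(CPM + 0.5) scale. It followed Igha most closely, with Pearson r = 0.97 and Spearman rho = 0.96 (permutation p = 1e-05 for both, the smallest that 100000 resamples can give), and r = 0.91 without the 2 tumors farthest from the Igkc median. Within the genotypes r was 0.98 in Het and 0.98 in WT tumors (n = 8 each, exact permutation test, adjusted p = 0.00067 and 0.000446). Jchain followed with r = 0.76 and rho = 0.70 (permutation p = 0.00117 and 0.00331, adjusted p = 0.00526 and 0.0149), and r = 0.64 without the 2 farthest tumors. Within genotypes r for Jchain was 0.96 in Het (exact permutation test, adjusted p = 0.0077) and 0.72 in WT tumors (adjusted p = 0.0867).

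Ighm was related to Igkc less closely, with r = 0.62 and rho = 0.66 (permutation p = 0.00832 and 0.00644, adjusted p = 0.025 and 0.0193), and r = 0.60 without the 2 farthest tumors. Within genotypes it did not pass the adjusted threshold, with r of 0.70 in Het and 0.71 in WT tumors (exact permutation test, adjusted p = 0.134 and 0.0867). The B cell surface genes Cd79a and Ms4a1 gave no relation past the threshold, with r = 0.31 for Cd79a and 0.33 for Ms4a1 (permutation test, adjusted p = 0.242 for both) and rho = 0.50 and 0.35 for the same genes (adjusted p = 0.0729 and 0.209). Ms4a1 was at 0 in 8 of 16 tumors and Cd79a in 4, so their levels were near the limit of detection. Cd3e, a T cell receptor subunit, gave r = 0.59 (permutation p = 0.0196, adjusted p = 0.0441) but rho = 0.30 (permutation p = 0.257, adjusted p = 0.257). Mzb1 gave r = 0.31 and rho = 0.53 (permutation p = 0.242 and 0.0382, adjusted p = 0.242 and 0.0688), and r = 0.66 without the 2 farthest tumors. Pigr passed by rank alone, with r = 0.50 and rho = 0.62 (permutation p = 0.0581 and 0.0113, adjusted p = 0.105 and 0.0255), and r = 0.51 without the 2 farthest tumors. Among mixed-strain libraries WT 2 had a loading of 0.58 on the first principal component and Het 5 had 0.82 on the second. Without WT 2 and Het 5 rho for Pigr was 0.54 (permutation test, adjusted p = 0.0839). Within genotypes Pigr did not pass, with rho of 0.63 in Het and 0.76 in WT tumors (exact permutation test, adjusted p = 0.227 and 0.103). In FVB tumors the Homo libraries lay apart from the others in Igkc and each genotype held 4 libraries. Relations over the 12 tumors therefore cannot be told apart from genotype. Pearson r with Igkc on log2 CPM was 0.95 for Igha, 0.86 for Jchain, 0.67 for Mzb1, -0.02 for Ighm and -0.65 for Pigr. The positive values of Ighm and Pigr in mixed-strain tumors were thus not seen across FVB tumors.

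**Figure D5:**
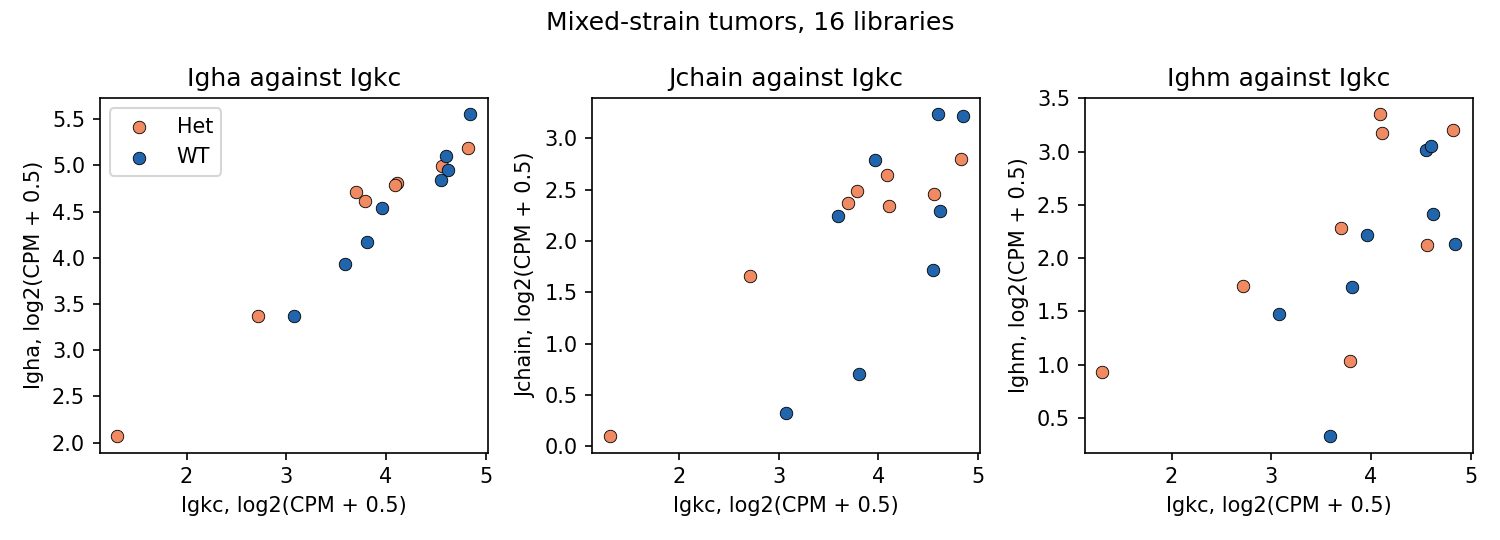
Igha, Jchain and Ighm against Igkc in 16 mixed-strain tumors, all in log2(CPM + 0.5), with Het and WT libraries in different colors. Each point is a library. Igha rises with Igkc along a narrow band (r = 0.97), Jchain (r = 0.76) and Ighm (r = 0.62) along wider ones, and the leftmost point in each panel is Het 8.

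The surrounding gene lists held few calls in mixed-strain tumors. None of 11 tested B cell genes, 16 plasma cell genes, 5 precursor genes, 8 antibody transport and Fc receptor genes, 9 survival and homing genes, 11 class switching genes, 15 T cell genes or 10 NK cell genes was called between Het and WT tumors. In Het tumors 8 B cell genes were higher and 3 lower, and 13 T cell genes were higher and 2 lower. The median log2 difference was 0.09 in both lists, against 0.05 over all genes tested. Of the B cell list, Ebf1, a transcription factor of B cell commitment, had a log2 difference of 1.05 ± 0.30 SE and Cd79a, a subunit of the B cell receptor, one of -0.63 ± 0.35 SE (limma adjusted p = 0.139 and 0.387). Of the antibody transport and Fc receptor genes 3 were higher and 5 lower. Pigr differed by -2.20 ± 0.77 SE (limma adjusted p = 0.201), with 3.41 to 16.4 CPM in Het and 2.27 to 738 CPM in WT tumors. Cd163, a macrophage scavenger receptor, fell by 2.25 ± 0.41 SE on the log2 scale (limma adjusted p = 0.032), as 1 of 14 macrophage genes. Of these 14, 3 were higher and 11 lower in Het tumors. All 11 neutrophil, 9 erythroid and 11 hepatocyte genes tested were lower in Het tumors and none was called. Their median log2 differences were -1.72, -0.90 and -0.37 in that order. The summed B cell list was 21.3 to 61.7 CPM in Het and 21.0 to 55.8 CPM in WT tumors, and the summed T cell list 12.2 to 54 CPM in Het and 7.16 to 27.7 CPM in WT tumors.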

How the data were processed

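RNA sequencing values of 16 mixed-strain tumors, 12 FVB tumors and 6 Rag1-/- livers were used from 3 tables of log2 values deposited by the authors. Per the labels' protocols, RNA came from frozen tissue by Trizol and a miRNeasy kit, with Nugen libraries. GRCm38 (mm10), Trim Galore, HISAT2, SAMtools and featureCounts are listed in the submitters' processing notes. Strand and multimapping settings were not given there. That build is of the C57BL/6 strain, and how variable segments of other strains mapped was not tested.

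The FVB and Rag1-/- tables hold log2 CPM with values at or below 1 CPM at 0 and only rows that reach 2 CPM in a library. The mixed-strain table is named RPKM by the authors, but its values behave as log2(CPM + 1), since they step equally for all genes, and were tested as log2(CPM + 0.5) over genes whose CPM averaged 0.5 or more. Steps gave whole reads within 0.1 reads for 89.5% to 100% of low values. Higher values are too coarsely rounded, so no count test was run.

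Each table was fitted alone with limma 3.58.1 in R 4.3.3 (eBayes with a trend, 3 FVB groups in 1 fit), checked on simulated data with 200 changed genes. A gene was called at an adjusted p below 0.05 (two-sided, Benjamini-Hochberg, all tested genes of the table). Intervals are 95% Clopper-Pearson. Relations used permutation tests, adjusted over 9 genes, 1 of which is not reported here. The labels give several ad-ARID1A samples names of other columns, which were matched by number. Same-numbered libraries of compared groups did not deviate together (correlations -0.20 to 0.28), so numbers were not used as pairs.

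Named genes were taken from the constant genes, the 10 variable segments with the highest mean, called members, the lists and the genes related to Igkc. Those named from a list are not always the ones with the smallest p. Members and lists were chosen with earlier results of these data known.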

Additional observations from a re-analysis of the deposited data

Results flagged for a closer look

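Of 38 groups of 4 to 10 libraries examined, 1 had a library far from the others, where chance alone flags about 1 in 20 groups. Igkv1-110 stood at 2.16 (log2(CPM + 1)) in the mixed-strain tumor Het 4, against 0.95 in the next Het tumor, a gap of 0.56 of the group's whole range. The value rests on 14 reads.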

How the results depend on the processing

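With the replicate block, the differences of Homo from WT in FVB tumors kept their size but missed the threshold, at 2.45 for Igkc (limma adjusted p = 0.0562) and 2.24 for Igha (adjusted p = 0.0522), and the block changed no other call of a member. The same numbers missed it with only the 2 groups compared (adjusted p = 0.222 for both). On log2(CPM + 1) Igkc was 1.92 (adjusted p = 0.0712). Where genes had to average a log2 CPM of 2, Igha was 2.24 (adjusted p = 0.115) and Igkc was not tested. Without WT 1 and WT 2, chosen after seeing the data, Igkc was 2.34, Igha 1.81 and Ighm 0.49. With array weights, Het against WT in FVB called Igkc (1.30, limma adjusted p = 0.011) and Igha (1.23, adjusted p = 0.0117), among 2287 of 16140 genes called under that setting. The causes were not tested.

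Leaving out 1 library gave 2.22 to 2.71 for Igkc, 2.0 to 2.46 for Igha and -0.40 to 0.093 for Ighm in Homo against WT, and -0.41 to 0.081 for Igha and -0.059 to 0.37 for Ighm in the mixed-strain tumors. The genes called in all then ran from 8 to 138 in the mixed-strain comparison, 0 to 36 in Homo against WT, 0 to 256 in Het against WT, 0 to 3 in Homo against Het and 0 to 19 in the Rag1-/- livers, where 45 were called with all 6. The mixed-strain count of 28 was 14 with no filter, 16 without WT 2 and Het 5, 101 with array weights and 75 with the block. The Homo against WT count of 7 was 3 on log2(CPM + 1), 0 at a mean of at least 2 (1117 at an unadjusted p under 0.05), 0 with 2 groups (1336), 3 without WT 1 and WT 2, 21 with array weights and 1 with the block. For Het against WT the count of 4 was 0, 0, 1, 1, 2287 and 0 under the same settings (2274, 1689 and 2491 at an unadjusted p under 0.05 where it was 0).

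Signs turned for some genes, none of them called. In the mixed-strain tumors array weights gave 0.00699 for Fkbp11, 0.0031 for Igkv15-103 and -0.10 for Jchain, values at or below 1 CPM set to 0 gave 0.11 for Ighd and 0.064 for Igkv1-117, and log2(CPM + 0.1) gave -0.0044 for Mzb1. Leaving out 1 library gave -0.084 to 0.25 for Ighv5-17, -0.21 to 0.33 for Jchain, -0.12 to 0.15 for Mzb1 and -0.022 to 0.40 for Cd3e. In Homo against Het in FVB it gave -0.19 to 0.38 for Mzb1 and -0.37 to 0.32 for Pigr, and in the Rag1-/- livers -0.42 to 0.018 for Fkbp11, -0.41 to 0.092 for Pigr and -0.01 to 0.20 for Xbp1. Pigr in Homo against Het was 0.28 with array weights. Without Igha the median summed constant CPM was 23.2 in Het and 27.6 in WT mixed-strain tumors, and 11.5 in Homo, 6.39 in Het and 4.08 in WT FVB tumors. A median of 32.5 members in Het and 33.5 in WT mixed-strain tumors had a read, against 4.5 and 5.5 above 1 CPM. On raw CPM the correlation of Igkc was 0.59 with Ighm and 0.37 with Cd3e, neither past the threshold.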

Other observations

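The rule left out 157 pseudogene rows. Of these 17 had a read in some mixed-strain tumor, 58 reads in all, led by Ighv3-2 with 19 and Ighv5-1 with 12. Those 58 reads compare with 764 on the variable segments counted as genes.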
